A study of Danio rerio with 36 samples.

Results

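The genes described are 10 enzymes of glycolysis in the zebrafish embryo: gpia, gpib, aldoab, aldocb, tpi1b, gapdh, gapdhs, pgam2, eno1a and eno3. They were chosen by name and not by a threshold on measured values, but with earlier results of these data known. Their counts beside those of all probe sets are therefore descriptions. Each gene was read from the probe sets that the array's annotation ties to that symbol alone. The 10 genes are part of 8793 genes read by a probe set of 1 symbol, and 14 probe sets carry their symbols. Of these, 11 were among the 15502 probe sets tested and 3 are manufacturer's control probe sets for gapdhs. The genes include 4 pairs of paralogs, aldoab with aldocb, gapdh with gapdhs, gpia with gpib, and eno1a with eno3, while tpi1b and pgam2 stand alone.

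Glycolysis splits glucose into pyruvate and yields ATP without oxygen. Teleost fish carry extra copies of many of its genes from an ancient genome duplication, and vertebrates in general use different forms of the same enzyme in different tissues. Aldolase A, beta enolase and the muscle form of phosphoglycerate mutase are known from skeletal muscle of mammals, aldolase C from brain, and alpha enolase from most tissues. Fast muscle of a swimming fish larva relies on glycolysis for short bursts, and neurons draw much of their energy from glucose.

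Whole embryos of the line Tg(fli1a:EGFP)y1, which carries green fluorescent protein under an endothelial promoter, were kept at 25C in sealed glass vials from about 3 h after fertilisation in embryo medium alone (control) or in medium with MTBE, the gasoline oxygenate methyl tert-butyl ether, at a dose of 0.00625, 0.625 or 5 mM. They were collected at 6-somites (about 15 h), 21-somites (about 24 h) or Prim-5 (about 30 h), and every group, controls included, carried the transgene. Each of the 12 groups held 3 pools of 15 embryos, each pool on its own 1-colour Affymetrix array, giving 36 arrays in all. Levels below are the authors' normalised log2 signals, which ran from 0.60 to 13.24 with array medians between 3.41 and 3.62. Levels of different probe sets are not on a common scale, so only differences of one probe set between arrays are compared, and a paralog difference is read only for how it changes.

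Genes of fast muscle and of neurons were read beside the enzymes, but no tissue was separated. The mean level of 14 fast muscle genes was 2.53 to 2.82 on the 12 arrays at 6-somites, 5.19 to 5.94 at 21-somites and 7.96 to 8.34 at Prim-5. That of 12 neuron genes was 2.87 to 3.25, 3.91 to 4.20 and 4.84 to 5.03. At 6-somites both means lay within 2.47 to 3.54, the range of the AsRed control probe set described below. These means alone therefore cannot show whether either tissue was read at that stage. Single genes of these lists were not set against AsRed. The slow muscle gene smyhc1 was bright there (6.48 to 7.80). In such bulk samples more cells of a type and more RNA per cell cannot be told apart. The control replicate 1 arrays at 6-somites and at 21-somites stood apart by low levels of genes of the yolk syncytial layer, the cell layer that moves yolk into the embryo. The mean of 5 such genes was 4.93 there at 6-somites against 5.71 and 5.68 on the other controls, and 5.39 at 21-somites against 7.49 and 7.40. At 6-somites the gap came mostly from the gene apoa2 (5.43 against 8.15 and 7.60). There apoc2, rbp4 and apobb.1 were lower by less, and apoea was not low (3.11 against 3.04 and 3.26). These pools are called the yolk-poor controls below, and many results that rest on them are given with and without them.

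From 6-somites to 21-somites, as a mean over the 4 doses, 7 of the 10 genes rose, 1 fell and 2 did not pass the test, with limma's adjusted p under 0.05 as the threshold for every such call. In the same comparison 52.8% of all probe sets tested were called, 21.5% as higher and 31.2% as lower. The median change of the 10 genes was 0.67 on the log2 scale and that of all probe sets tested -0.07. From 21-somites to Prim-5 all 10 genes rose, where 30.4% of all probe sets were called, 13.6% as higher and 16.8% as lower. The median rise of the 10 was 1.16 and that of all probe sets -0.03. With cyclic loess normalization the calls over all probe sets split into 3829 higher and 3648 lower for the first step, against 3338 and 4843, and into 2609 and 1831 for the second, against 2116 and 2604. The counts for the 10 genes were then 9 and 10, the added call being pgam2. For aldoab, eno1a, aldocb and gpia the first step was the larger, and for the other 6 genes the second, a description for which no test between the steps was made.

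Within single doses, with 3 arrays against 3, the first step called 7 genes as higher in controls, 6 as higher and 1 as lower at 0.00625 mM, 5 as higher at 0.625 mM and 6 as higher at 5 mM. Over all probe sets 22.6%, 24.5%, 21.2% and 27.7% were called in these comparisons. The second step called 9, 8, 9 and 9 genes, all as higher, where 7.04%, 7.24%, 11.3% and 9.32% of all probe sets were called. Called in the first step at every dose were aldoab, aldocb, eno1a, gapdhs and gpia.

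**Figure D1:**
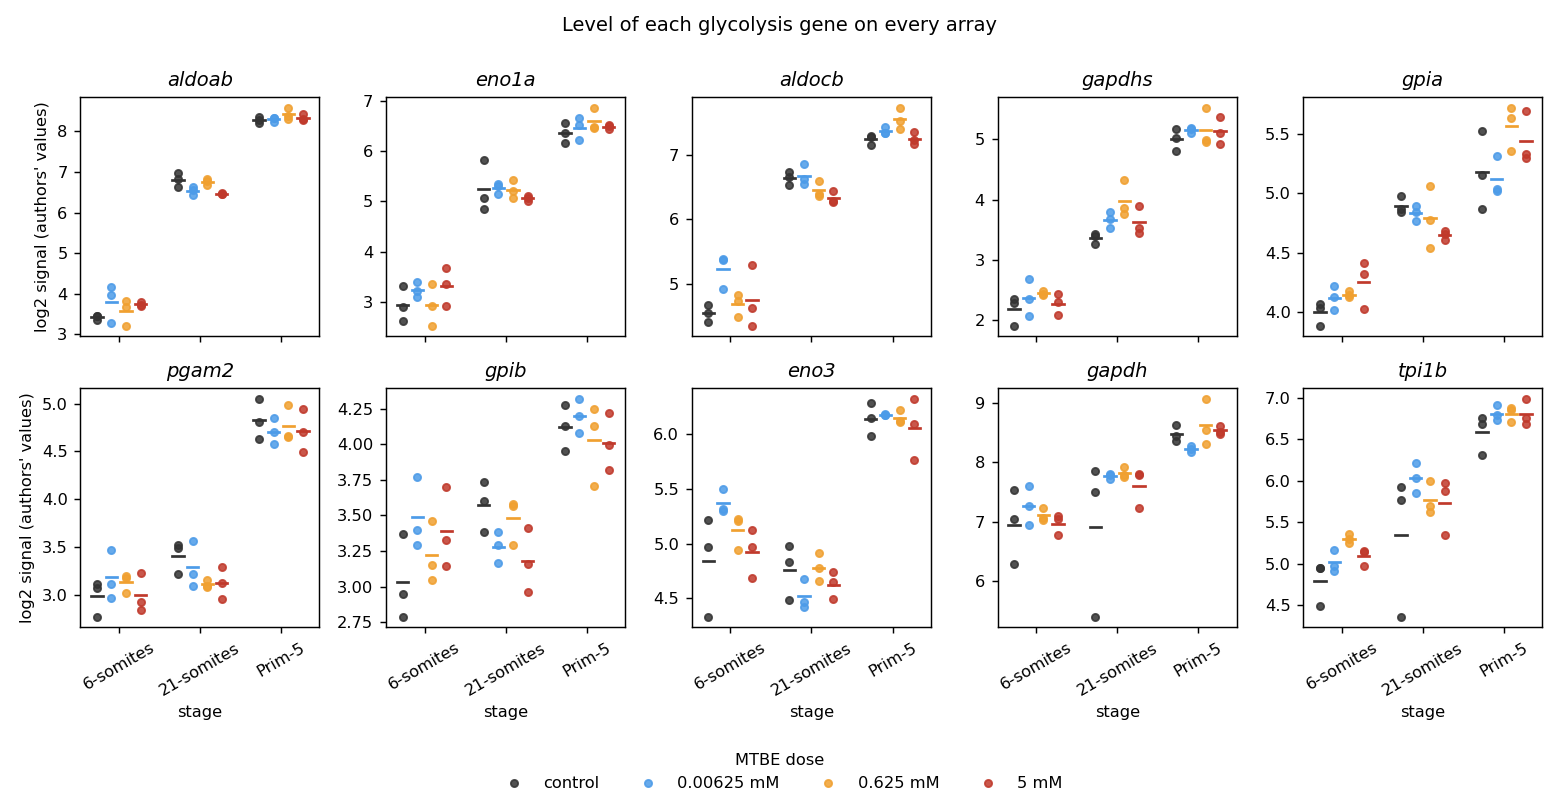
Log2 signal (vertical axis, authors' values) of each of the 10 genes on all 36 arrays, by stage (horizontal axis) and MTBE dose (colour); points are arrays and bars are means of 3. All 10 genes lie higher at Prim-5 than at 21-somites in their means, eno3 dips at 21-somites, and the low control points of gapdh (5.40) and tpi1b (4.36) at 21-somites are the yolk-poor control.

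Glucose-6-phosphate isomerase, encoded by gpia and gpib, turns glucose 6-phosphate into fructose 6-phosphate. The level of gpia was 3.88, 4.12 and 4.41 (lowest, median and highest of 12 arrays) at 6-somites, 4.54, 4.81 and 5.06 at 21-somites, and 4.87, 5.32 and 5.72 at Prim-5. All arrays at 21-somites were above all arrays at 6-somites, and the upper stages overlapped. The rises were 0.66 ± 0.07 (SE; limma adjusted p = 4.4e-10) and 0.54 ± 0.07 (adjusted p = 1.3e-07). The rise to Prim-5 was 0.78 at 0.625 mM and 0.79 at 5 mM, where it passed the test, and 0.29 in controls and 0.29 at 0.00625 mM, where it did not (limma adjusted p = 0.26 and 0.25). Whether the rise differed from that of controls was tested as part of the stage by dose interaction given below, which called no gene. For gpia the adjusted p of limma's moderated F was 0.88 at 0.625 mM and 0.61 at 5 mM.

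The level of gpib was 2.79, 3.31 and 3.77 at 6-somites, 2.97, 3.38 and 3.74 at 21-somites, and 3.71, 4.13 and 4.32 at Prim-5. The earlier stages covered nearly the same range, and the lowest array at Prim-5 lay just under the highest at 21-somites. The difference of the first step was 0.09 ± 0.08 (limma adjusted p = 0.34) and the rise of the second 0.71 ± 0.08 (adjusted p = 1.1e-08). In controls alone the first step was called (0.54, limma adjusted p = 0.015), but without the yolk-poor controls it was 0.41 (adjusted p = 0.16). The call was also lost when control replicate 1 or 2 of 6-somites or replicate 1 of 21-somites was left out by itself (0.42 to 0.50, limma adjusted p = 0.053 to 0.11). Array weights, 50 added to the linear signals, or only the arrays compared lost it too (limma adjusted p = 0.093, 0.065 and 0.068).

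The difference gpia minus gpib within an array changed by 0.57 from 6-somites to 21-somites (exact permutation test within doses, two-sided, p = 0.00029, adjusted p = 0.0012 over 20 paralog tests). On the 12 arrays it ran from 0.32 to 1.28 at 6-somites and from 0.96 to 1.67 at 21-somites, with overlap. From 21-somites to Prim-5 it changed by -0.17 (exact permutation adjusted p = 0.42). The change was positive at each of the 4 doses in the first step (0.36 to 0.92). In that interval gpia rose and gpib did not pass the test. The gpib levels were dim. Of its group means, 4 of 4 at 6-somites and 3 of 4 at 21-somites lay between 2.47 and 3.54. This is the range over the 36 arrays of a control probe set for AsRed, a red fluorescent protein that the embryos do not make. A change of gpib in the first step may not be visible at such levels.

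Aldolase cleaves fructose 1,6-bisphosphate, and both its genes rose at each step. The level of aldoab was 3.21, 3.68 and 4.16 at 6-somites, 6.42, 6.62 and 6.96 at 21-somites, and 8.20, 8.32 and 8.58 at Prim-5. No array of a stage reached the next. The rises were 3.01 ± 0.07, or 8.06-fold (limma adjusted p = 4.1e-29), and 1.69 ± 0.07, or 3.24-fold (adjusted p = 1.4e-20). The first was the highest among the 10 genes. Within doses it was 3.39 in controls, 2.73 at 0.00625 mM, 3.19 at 0.625 mM and 2.73 at 5 mM. The control mean of aldoab at 6-somites (3.41) lay within the AsRed range, and 1 of 12 arrays of that stage was under AsRed on the same array.

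The level of aldocb on its brighter probe set was 4.35, 4.70 and 5.39 at 6-somites, 6.27, 6.54 and 6.85 at 21-somites, and 7.15, 7.33 and 7.72 at Prim-5. Its stages also did not overlap. The rises were 1.72 ± 0.08, or 3.31-fold (limma adjusted p = 8.3e-21), and 0.83 ± 0.08, or 1.77-fold (adjusted p = 4.7e-11). The dimmer probe set of aldocb ran from 2.15 to 3.18 over the 36 arrays and gave 0.16 (limma adjusted p = 0.11) and 0.14 (adjusted p = 0.23). The AsRed control probe set averaged 2.98 over the 36 arrays, and the dimmer probe set had stage means of 2.54, 2.70 and 2.84.

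The difference aldoab minus aldocb rose by 1.29 and then by 0.87 (exact permutation test within doses, two-sided, adjusted p = 8.3e-05 for each, from the smallest p the test can give, 1.25e-05). It ran from -1.63 to -0.56 at 6-somites, from -0.28 to 0.46 at 21-somites and from 0.85 to 1.26 at Prim-5. No array of a stage overlapped with the next, and the same held within each of the 4 doses. This was the only pair of the 4 whose difference passed the test at both steps, except that gapdh minus gapdhs also did with certain arrays left out, as given below.

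**Figure D2:**
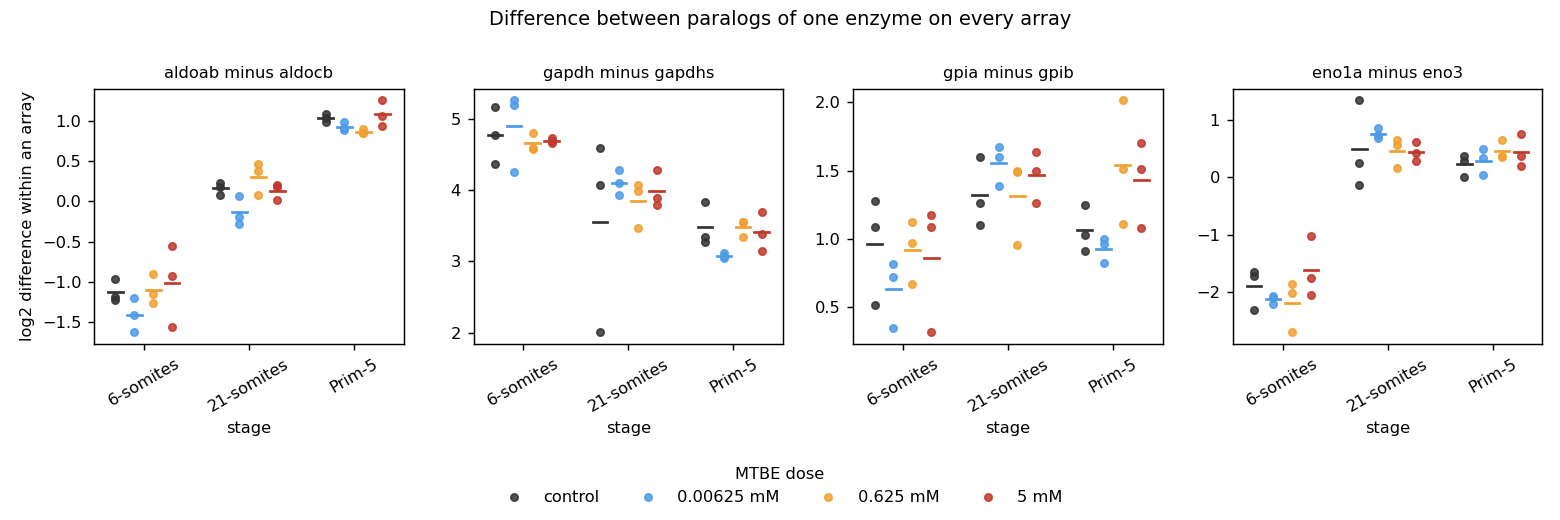
Log2 difference between the paralogs of an enzyme on the same array (vertical axis) by stage (horizontal axis) and MTBE dose (colour); points are arrays and bars are means of 3. The aldolase difference rises at both steps, the enolase and isomerase differences rise by 2.49 and 0.57 in the first step, and the gapdh minus gapdhs difference falls by 0.88 in the first step; the low control point at 2.01 is the yolk-poor control at 21-somites.

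Triose phosphate isomerase, encoded by tpi1b, interconverts the products of aldolase. Its level was 4.49, 5.06 and 5.35 at 6-somites, 4.36, 5.86 and 6.21 at 21-somites, and 6.31, 6.76 and 6.99 at Prim-5. The yolk-poor controls were the lowest arrays of the first stages, and the control replicate 1 array was also the lowest at Prim-5. The rises were 0.67 ± 0.11 (limma adjusted p = 3.3e-06) and 1.03 ± 0.11 (adjusted p = 1.3e-09). With the yolk-poor controls left out the rises were 0.76 and 0.91 and both passed the test.

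Glyceraldehyde-3-phosphate dehydrogenase makes the NADH of the pathway and is encoded by gapdh and by gapdhs, whose mammalian counterpart is known from sperm. The level of gapdh was 6.28, 7.06 and 7.61 at 6-somites, 5.40, 7.78 and 7.93 at 21-somites, and 8.17, 8.47 and 9.07 at Prim-5. All arrays at Prim-5 were above those at 21-somites, and the earlier stages overlapped. The rises were 0.46 ± 0.16 (limma adjusted p = 0.017) and 0.94 ± 0.16 (adjusted p = 1.5e-05). In controls the first step was -0.03 and the second 1.56, and at the 3 MTBE doses the steps were 0.50 to 0.72 and 0.45 to 0.93, none of which passed. Without the yolk-poor controls the steps of the controls were 0.39 (limma adjusted p = 0.19) and 0.80 (adjusted p = 0.0042). The steps over all doses were then 0.56 and 0.75 and both passed (limma adjusted p = 1.3e-06 and 4.9e-09). The steps at the MTBE doses, whose arrays and values stay the same, passed in 5 of 6 cases in that fit, where the spread was smaller (limma adjusted p = 0.021, 0.0011 and 0.0030 in the first step, 0.086, 0.00054 and 8.8e-05 in the second, at the rising doses). With the yolk-poor control of 21-somites alone left out, the first step of the controls was 0.72 and passed (limma adjusted p = 0.016). Without the control replicate 2 array of 21-somites the first step over all doses was 0.34 and no longer passed (limma adjusted p = 0.051).

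The level of gapdhs was 1.91, 2.35 and 2.68 at 6-somites, 3.26, 3.60 and 4.32 at 21-somites, and 4.80, 5.10 and 5.52 at Prim-5. The stages did not overlap. The rises were 1.34 ± 0.08 (limma adjusted p = 1.5e-16) and 1.45 ± 0.08, or 2.73-fold (adjusted p = 5.0e-17). On all 12 arrays at 6-somites it was below AsRed on the same array, so these levels sit where a probe set without a target also reads. They also lay within the DsRed range (1.75 to 2.74), though no group mean was under the DsRed mean of 2.18. Counted against the higher of its own and the AsRed level on each array of 6-somites, the first rise was 0.52, or 1.43-fold. AsRed is another probe set, so this value is no lower bound for gapdhs. The levels of 21-somites were left as measured, and the control mean there (3.36) also lay within the AsRed range.

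The manufacturer's control probe sets for gapdhs, read at the 5′ end, the middle and the 3′ end of the transcript, gave different first steps. The 3′ probe set rose by 1.16 and then 1.47, the middle one by 0.73 and then by more than that, and the 5′ one gave 0.09 (limma adjusted p = 0.40) and then rose by 0.37 (adjusted p = 0.0020). The 3′ minus 5′ difference averaged -0.88 ± 0.36 (SD, n = 12) at 6-somites, 0.19 ± 0.21 at 21-somites, and lay between 0.91 and 1.88 at Prim-5. All 4 probe sets passed the test for the second step, and the size of the measured gapdhs rise differed between them. The control probe sets were dim. The 5′ one had stage means of 3.27, 3.36 and 3.73, and the 3′ one had 2.39 at 6-somites. AsRed ran from 2.47 to 3.54 over the arrays. Whether background levels or the end that was read set these differences was not tested.

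The difference gapdh minus gapdhs fell by 0.88 from 6-somites to 21-somites (exact permutation test within doses, two-sided, p = 6.2e-05, adjusted p = 0.00031). The gapdhs levels at 6-somites behind this are those below AsRed, so the size of the fall is not settled. Its direction also rests on the gapdhs probe set that is read. While gapdh rose by 0.46, gapdhs rose by 1.34 as measured and by 0.52 when counted against AsRed. The 5′ control probe set of gapdhs gave 0.09, which is less than the rise of gapdh. The middle one gave 0.73 and the 3′ one more. The paralog test was not run with these control probe sets. The difference ran from 4.26 to 5.26 at 6-somites and from 2.01 to 4.59 at 21-somites, with overlap, the 2.01 being the yolk-poor control. To Prim-5 it changed by -0.51 (exact permutation adjusted p = 0.068), without the yolk-poor controls by -0.70 (adjusted p = 0.00033), and without replicate 3 at 0.625 mM and 21-somites by -0.56 (adjusted p = 0.039). With 50 added to every linear signal, which shrinks changes of dim probe sets, both signs turned, to 0.18 (exact permutation adjusted p = 0.53) and 0.32 (adjusted p = 0.019).

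Phosphoglycerate mutase shifts a phosphate late in the pathway, and pgam2 is named after the muscle form of mammals. Its level was 2.77, 3.09 and 3.47 at 6-somites, 2.95, 3.18 and 3.56 at 21-somites, and 4.49, 4.70 and 5.05 at Prim-5. The earlier stages shared nearly 1 range, and every array at Prim-5 was above both. All 4 group means of each earlier stage lay within the AsRed range, so a change in the first step may not be visible at these levels. The first step was 0.16 ± 0.07 (limma adjusted p = 0.074) and the second 1.52 ± 0.07, or 2.87-fold (adjusted p = 7.0e-19). With cyclic loess normalization the first step was 0.18 and passed (limma adjusted p = 0.040). In controls it was 0.42 and passed (adjusted p = 0.037), but not without the yolk-poor controls (0.43, adjusted p = 0.10), nor with control replicate 2 of 6-somites or replicate 1 or 3 of 21-somites left out (0.31 to 0.38, adjusted p = 0.11 to 0.19). The call in controls was also lost with quantile normalization and with array weights (limma adjusted p = 0.088 and 0.14). With 50 added to the linear signals and with only the arrays compared it was lost too (adjusted p = 0.23 and 0.098). At the MTBE doses the step was -0.02 to 0.12 and did not pass. Leaving out any of 4 of the 24 arrays also let the step over all doses pass (6-somites 0.00625 mM replicate 1 and 5 mM replicate 1, 21-somites control replicate 2 and 0.00625 mM replicate 3, 0.18 to 0.19).

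Enolase makes phosphoenolpyruvate, and its genes eno1a and eno3 parted most in the first step. The level of eno1a was 2.53, 3.16 and 3.67 at 6-somites, 4.84, 5.13 and 5.82 at 21-somites, and 6.16, 6.50 and 6.86 at Prim-5. The stages did not overlap. The rises were 2.10 ± 0.10 (limma adjusted p = 8.9e-20) and 1.28 ± 0.10, or 2.43-fold (adjusted p = 6.5e-13). In 2 of the 4 groups at 6-somites its mean was under the AsRed average, and all 4 means lay within the range of AsRed over the arrays (2.47 to 3.54). Counted against AsRed in the same way, the first rise was 1.93, or 3.82-fold, which likewise is no lower bound.

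The level of eno3 was 4.33, 5.17 and 5.49 at 6-somites, 4.42, 4.67 and 4.98 at 21-somites, and 5.76, 6.17 and 6.32 at Prim-5. It was the member that fell before it rose, by 0.39 ± 0.08 on the log2 scale (limma adjusted p = 9.1e-05), with overlap of the arrays, and then rose by 1.46 ± 0.08, or 2.75-fold (adjusted p = 2.1e-17), with none. By dose the fall passed the test only at 0.00625 mM (-0.85, limma adjusted p = 0.00011), where the groups did not overlap. It was -0.07 in controls, -0.34 at 0.625 mM and -0.30 at 5 mM, none of which passed. At 6-somites the yolk-poor control had the lowest eno3 (4.33 against 4.69 to 5.49 on the other 11 arrays). Whether the fall differed between 0.00625 mM and control was tested as part of the stage by dose interaction given below, which called no gene.

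The difference eno1a minus eno3 rose by 2.49 in the first step (exact permutation test within doses, two-sided, adjusted p = 8.3e-05). It ran from -2.70 to -1.02 at 6-somites and from -0.13 to 1.34 at 21-somites, with no overlap, also within each dose (2.05 to 2.89). In the second step, when both genes rose, it changed by -0.18 (exact permutation adjusted p = 0.42).

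**Figure D3:**
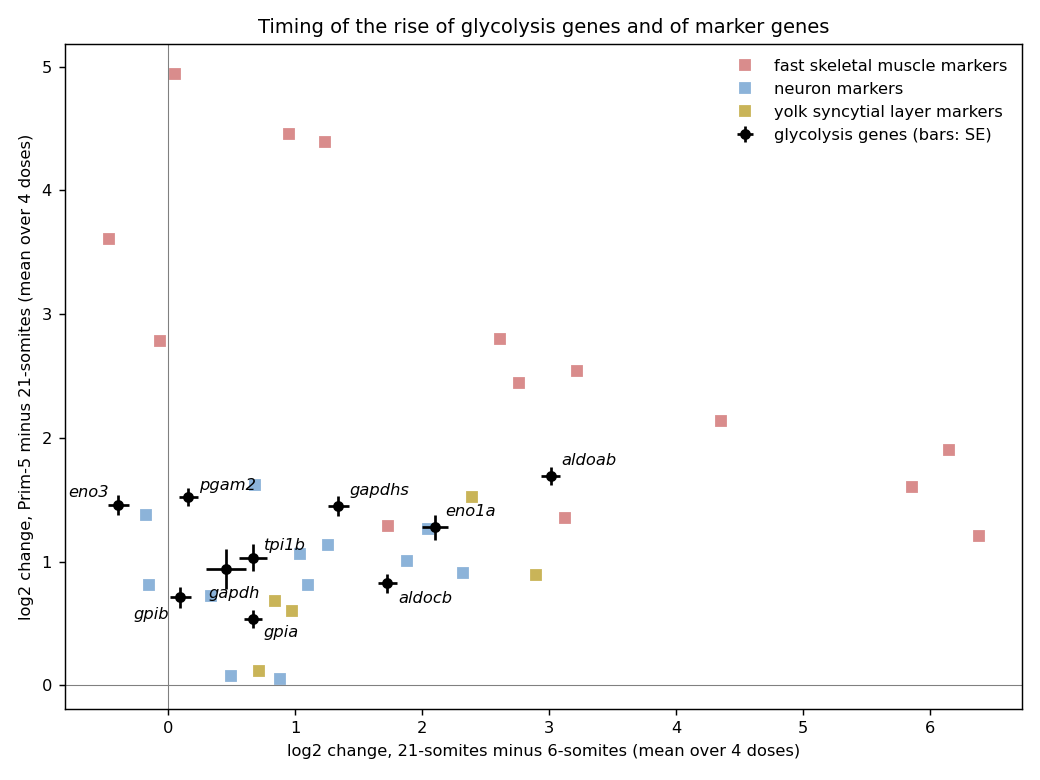
Log2 change from 6-somites to 21-somites (horizontal axis) against that from 21-somites to Prim-5 (vertical axis), each a mean over 4 doses, for the 10 glycolysis genes (black, bars SE) and for single fast muscle, neuron and yolk syncytial layer genes (squares). aldoab (3.01, 1.69) and eno1a (2.10, 1.28) lie to the right, and pgam2 (0.16, 1.52) and eno3 (-0.39, 1.46) at the left.

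The timing of the genes can be set beside that of genes of the tissues. Of all probe sets tested 21.5% were called higher in the first step and 13.6% in the second. Of 14 fast muscle genes on the array, 11 rose and 1 fell in the first step and 14 rose in the second. Some rose mainly in the first step: myl1, a fast myosin light chain, rose by 6.38 and then 1.21, and atp2a1, the calcium pump of the muscle reticulum, by 5.86 and then 1.60. Others rose in the second: tnni2a.4, a fast troponin I, gave 0.06 (limma adjusted p = 0.55) and then rose by 4.94, and tnnt3b, a fast troponin T, fell by 0.46 and then rose by 3.61. Of 12 neuron genes 10 rose and 1 fell in the first step and 10 rose in the second. Examples are atp1a3a, a neuronal sodium pump subunit (2.32 and 0.91), and gap43, a growth cone protein (1.26 and 1.13). Of 5 yolk syncytial layer genes 5 rose and then 3. Of the lists of other tissues, those of heart muscle and red blood cells rose at both steps too. The mean of 4 heart muscle genes had medians over 12 arrays of 2.78, 6.05 and 6.97 at the rising stages. That of 4 red blood cell genes had medians of 2.81, 5.53 and 6.91. These lists rose over the same intervals, while further lists differed by step. The mean of 3 eye lens genes had medians of 2.12, 2.14 and 2.92, and that of 4 notochord genes 4.66, 5.80 and 5.82. The slow muscle gene smyhc1 had 7.48, 10.05 and 10.24. The mean of 6 radial glia and neural progenitor genes had 5.33, 5.70 and 5.94. Genes within these lists went both ways. In the first step fabp7a (2.02), gfap (1.00) and sox3 (0.21) rose, sox2 (-0.43) and notch1a (-0.55) fell, and sox19a was not called. Of the notochord list col2a1a (2.40), col9a2 (2.94) and shha (0.19) then rose and tbxta (-0.69) fell. Of the lens list cryba4 (1.04) and crybb1 (1.43) rose and cryaa (-0.19) fell in the second step. The lens medians all lay under the AsRed mean of 2.98. The tissue that each enzyme's signal came from was not measured.

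Among other glycolysis enzymes the calls went both ways. Of all probe sets tested 21.5% were called higher and 31.2% lower in the first step, and 13.6% and 16.8% in the second. The counts of the lists below are descriptions to be read beside these shares. Of 31 genes listed, 20 were on the array, and 7 rose and 4 fell in the first step and 8 rose and 3 fell in the second. Their medians were 0.11 and 0.07, against 0.67 and 1.16 for the 10 genes. Phosphoglycerate kinase pgk1 rose by 0.73 and 0.80, and the phosphofructokinase gene pfkpa gave 0.04 (limma adjusted p = 0.74) and then rose by 1.07. Further paralogs of the enzymes above went their own ways. The mutase gene pgam1b rose by 0.27 and 0.40. The aldolase gene aldoaa, paralog of aldoab, fell by 0.23 and then by 0.19 (limma adjusted p = 0.00053 and 0.0056). Of 10 glycogen and glucose formation genes on the array (25 listed), 6 rose and 1 fell in the first step and 4 rose and 2 fell in the second. Muscle glycogen phosphorylase pygmb rose by 0.31 and 1.61, and phosphoglucomutase pgm1 by 1.27 and 0.66. Of 15 genes of sugar and lactate transport, pyruvate entry and control of glycolysis (31 listed), 4 rose and 6 fell, and then 3 rose and 1 fell. The glucose transporter gene slc2a3a rose by 1.13 and 0.30, and the monocarboxylate transporter gene slc16a1b fell by 1.06 and 0.32.

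For each gene the most similar other probe sets were found by the root mean square distance of the profile over the 12 group means, each centred on its own mean, among 6074 candidates at or above the median level. These are descriptions over group means that share arrays and stages, and no test was made. The distances were computed with the yolk-poor controls included and not without them. Closest to aldoab were tmem38a (0.15 log2 units), an ion channel of the muscle reticulum, and the collagen genes col1a1a and col1a2. Closest to aldocb were the globin gene cygb1, dpysl3 and sncb (0.15 to 0.18), the latter pair known from neurons. Closest to eno1a was cplx2a (0.10), a synaptic protein gene, followed by the muscle desmin gene desma and cldc1 (0.15 and 0.16). Closest to pgam2 were both probe sets of pygmb (0.13 and 0.19), the muscle glycogen phosphorylase.

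Closest to gapdhs were cavin1b, gng3 and gap43 (0.22 to 0.23), and to eno3 the creatine kinase gene ckbb, hsp90b1 and aldh6a1 (0.22 to 0.31). Closest to gpia were ppdpfa, rtn3 and lmo7a (0.12 to 0.13), and to gpib mybpc2b, a fast muscle myosin-binding protein gene, mlf1 and ppp2r3b (0.14 to 0.15). Closest to gapdh were the muscle gene tmod4, masp2 and cfhl4 (0.17 to 0.22), and to tpi1b pdia4, nr0b2a and apoc2 (0.17 to 0.18), apoc2 being on the yolk layer list. Among the 10 genes, gapdh and tpi1b were the nearest to each other (0.22). Paralogs were not each other's nearest member except gpia and gpib for both (0.30). The distances were 0.89 for the aldolases, 0.60 for gapdh and gapdhs, and 1.15 for the enolases.

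**Figure D4:**
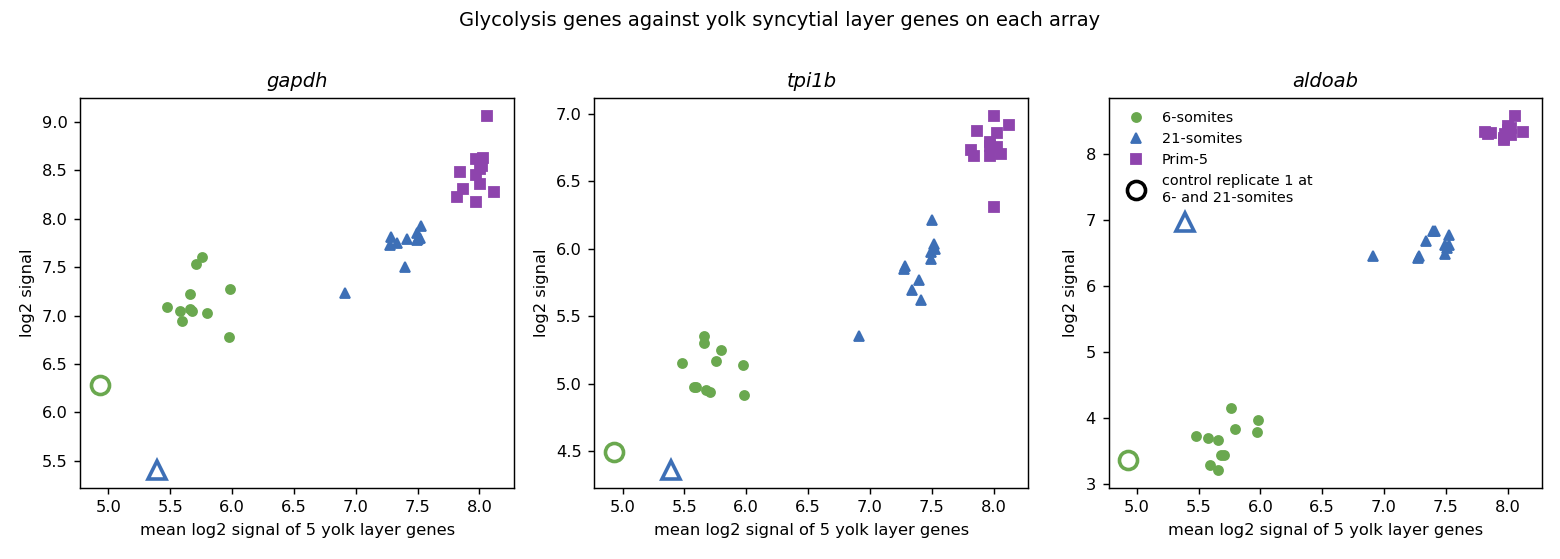
Log2 signal of gapdh, tpi1b and aldoab (vertical axes) against the mean log2 signal of 5 yolk syncytial layer genes (horizontal axis) on 36 arrays by stage; open symbols are the control replicate 1 arrays of 6-somites and 21-somites. The open symbols are low on both axes for gapdh and tpi1b, while for aldoab the open triangle (6.96) is the highest array at 21-somites.

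The yolk-poor controls split the enzymes. On the array of 21-somites gapdh was 5.40 against 7.24 to 7.93 on the other 11 arrays of that stage, and tpi1b 4.36 against 5.35 to 6.21. Going the other way on the same array, eno1a was 5.82 against 4.84 to 5.42, aldoab 6.96 against 6.42 to 6.83, and gpib 3.74 against 2.97 to 3.60. The other 5 genes lay within the range of the other arrays. How many of all probe sets lay outside such ranges on the yolk-poor controls was not counted, so these readings are descriptions. On this array apoa2, an apolipoprotein gene of the yolk layer, was 4.93 against 8.82 and 8.71 on the other controls. Other lists stood out there too. The mean of 14 fast muscle genes was the highest of the stage (5.94 against 5.19 to 5.63). That of 4 heart muscle genes was the lowest (5.50 against 5.83 to 6.29), and that of 4 notochord genes just the highest (5.964 against 5.608 to 5.957). The neuron, radial glia, red blood cell and lens means and smyhc1 lay within the range of the other arrays.

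On the yolk-poor control of 6-somites gapdh was 6.28 against 6.77 to 7.61, tpi1b 4.49 against 4.92 to 5.35, eno3 4.33 against 4.69 to 5.49 and gapdhs 1.91 against 2.07 to 2.68. At Prim-5, where the yolk layer mean of control replicate 1 (8.01) lay among the others (7.82 to 8.12), gapdh also lay inside the range of the other 11 arrays, and tpi1b was lowest (6.31 against 6.68 to 6.99). On the yolk-poor control of each earlier stage, gapdh and tpi1b, grouped here with enzymes of muscle and brain, were low together with yolk layer genes. At Prim-5 tpi1b was low on control replicate 1 without low yolk layer genes. The part of yolk tissue in this was not tested.

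The question of the doses is whether MTBE shifted the enzymes at a concentration that, per the labels, disturbs blood vessels (5 mM), at one without observed adverse effect (0.625 mM) or at a far lower one (0.00625 mM). Each stage has a single control group, so the 3 differences of a stage share 3 control arrays. In the 9 comparisons within a stage the test called 1 of the 10 genes once. This was aldocb at 6-somites and 0.00625 mM, where 0.29% of all probe sets were called, 37 as higher and 8 as lower (27 against 15 after quantile normalization; 27 against 14 after cyclic loess).

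At 6-somites aldocb read 4.55, 4.67 and 4.41 in the control pools, 4.91, 5.37 and 5.39 at 0.00625 mM, 4.48, 4.82 and 4.73 at 0.625 mM and 5.29, 4.35 and 4.61 at 5 mM. All 3 pools of the lowest dose were above all controls, and the other doses overlapped with controls. The differences were 0.68 ± 0.15 (SE; limma adjusted p = 0.040), 0.14 (adjusted p = 0.91) and 0.21 (adjusted p = 0.75). The call at 0.00625 mM was lost, with the same sign, when any of 5 of the 6 pools was left out, the 3 controls among them (0.60 to 0.75, limma adjusted p = 0.068 to 0.089). It was also lost without the yolk-poor controls (0.68, adjusted p = 0.082), and the dimmer aldocb probe set gave -0.10 (adjusted p = 0.85).

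At 6-somites most other members lay above control without passing the test. Of the 10 genes, 10 were above control at 0.00625 mM, 9 at 0.625 mM and 10 at 5 mM, and without the yolk-poor controls 9, 8 and 7. The medians with all arrays were 0.31, 0.15 and 0.23, against 0.03, 0.02 and 0.03 for all probe sets tested. For example, aldoab read 3.36, 3.45 and 3.44 in controls and 3.28, 4.16 and 3.97 at 0.00625 mM (0.39, limma adjusted p = 0.21). Without replicate 1 of that dose the difference was 0.65 and passed (limma adjusted p = 0.048). The difference for eno3 was 0.53 (limma adjusted p = 0.12), and 0.28 (adjusted p = 0.45) when the yolk-poor controls were left out. That for gpib was 0.45 (adjusted p = 0.20). At 0.625 mM 0.0129% of all probe sets were called and at 5 mM none, with 1067 and 1334 at an unadjusted p under 0.05. All 5 yolk layer genes were above control at each dose of this stage (medians 0.27 to 0.29), and without the yolk-poor controls the medians of the 10 genes were 0.20, 0.13 and 0.17. The differences of gapdh were then -0.01, -0.18 and -0.32.

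**Figure D5:**
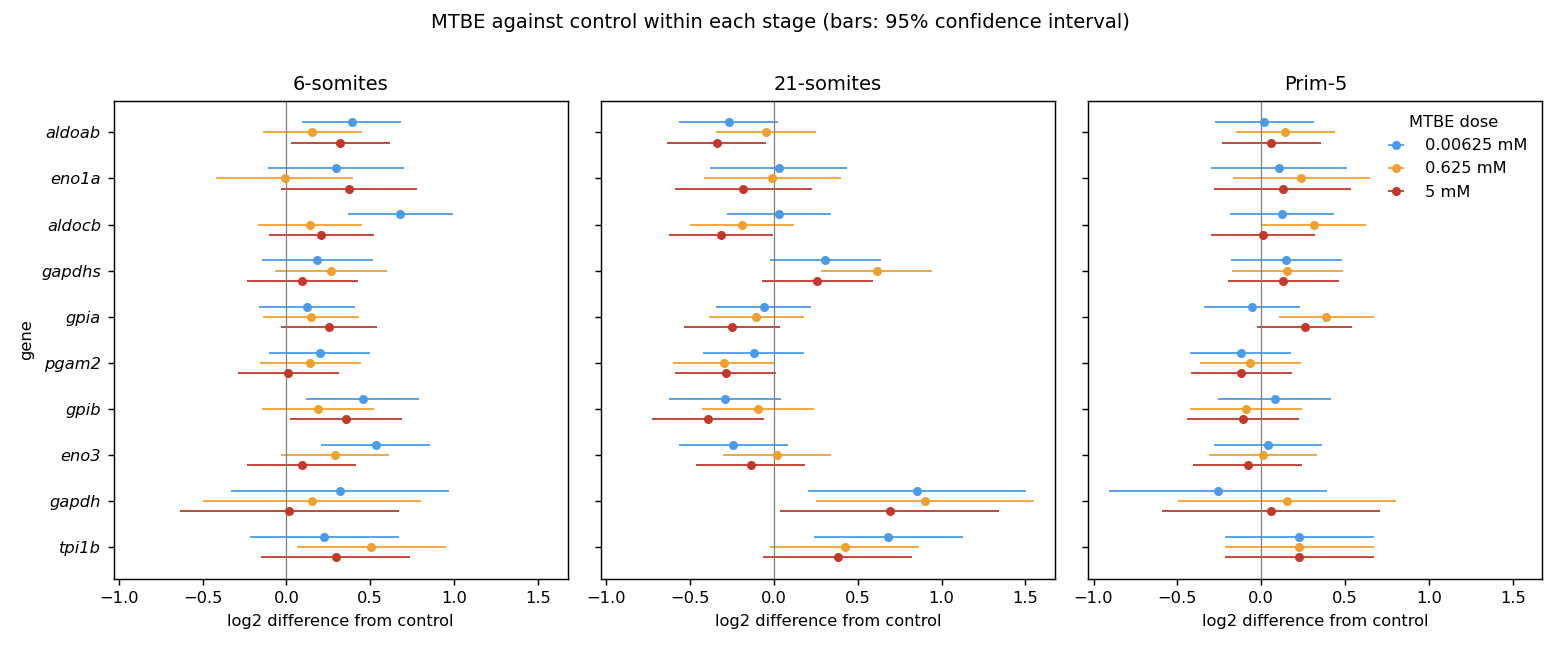
Log2 difference from control (horizontal axes) for each gene (vertical axis) at 3 MTBE doses (colour) within each stage; points are fitted differences of 3 against 3 arrays and bars are 95% confidence intervals. The interval of aldocb at 6-somites and 0.00625 mM (0.37 to 0.99) passed the test across all probe sets; gapdh at 21-somites has wide intervals (0.25 to 1.55 at 0.625 mM).

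At 21-somites limma called no probe set at any dose (852, 919 and 1163 of 15502 at an unadjusted p under 0.05), and none of the 10 genes (2, 2 and 4 unadjusted). The largest differences were those of gapdh, which read 5.40, 7.85 and 7.50 in controls, 7.80, 7.73 and 7.79 at 0.00625 mM, 7.75, 7.93 and 7.79 at 0.625 mM and 7.24, 7.78 and 7.81 at 5 mM. The differences of 0.85, 0.90 and 0.69 rested on 1 control pool, and leaving out the yolk-poor controls gave 0.10, 0.15 and -0.07. For tpi1b they were 0.68, 0.42 and 0.38 with that pool and 0.19, -0.07 and -0.11 when it was left out.

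Other differences at 21-somites did not pass either. For aldoab at 5 mM the pools read 6.45, 6.48 and 6.46 against 6.96, 6.62 and 6.83 in controls, without overlap (-0.34, 95% interval -0.64 to -0.05, limma adjusted p = 0.64). This difference was -0.26 (limma adjusted p = 0.93) when the yolk-poor controls were left out. For gpib the difference at 5 mM was -0.39 (adjusted p = 0.64) and for aldocb -0.31 (adjusted p = 0.66). For pgam2 the differences were -0.12, -0.30 and -0.29 from the lowest to the highest dose, and -0.06, -0.24 and -0.23 without the yolk-poor controls. Fast muscle genes lay below control as well (13 of 14 at 0.00625 mM, 12 at 0.625 mM and 14 at 5 mM, medians -0.28, -0.16 and -0.32, none called), as did 11 of 12 neuron genes at 5 mM (median -0.22). With all arrays the medians of all probe sets tested were -0.01, -0.009 and -0.02 at the rising doses. The genes of a list were read on the same arrays, so their counts are not independent. Without the yolk-poor controls 12, 10 and 12 of the 14 muscle genes lay below control, with medians of -0.21, -0.05 and -0.31, and 11 of 12 neuron genes at 5 mM (median -0.29).

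Also at 21-somites, gapdhs read 3.76, 3.85 and 4.32 at 0.625 mM against 3.39, 3.26 and 3.43 in controls, without overlap (0.61, limma adjusted p = 0.83). Its control probe sets gave 0.20 at the 3′ end, 0.26 at the 5′ end and -0.06 in the middle. At Prim-5 none of the 10 genes was called, where limma called 0, 0 and 1 of all probe sets, or 0%, 0% and 0.00645%. An unadjusted p under 0.05 was found for 0, 2 and 0 of the 10 genes. Over all probe sets it was found for 313, 535 and 578 (2.02%, 3.45% and 3.73%). The differences of the 10 genes at Prim-5 lay between -0.26 and 0.39. Averaged over the 3 stages limma called no probe set at any dose (916, 707 and 847 at an unadjusted p under 0.05, with 3, 3 and 1 of the 10 genes among them), with differences of the 10 genes from -0.13 to 0.40.

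Whether a dose acted differently by stage was tested with limma's moderated F for the stage by dose interaction, which called none of the probe sets at any dose (1277, 867 and 1188 at an unadjusted p under 0.05) and none of the 10 genes (4, 0 and 3 unadjusted). Among the latter was aldoab at 5 mM, which lay above all controls at 6-somites (3.72, 3.79 and 3.69 against 3.36, 3.45 and 3.44) and below all controls at 21-somites (limma adjusted p of the F test = 0.59).

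One paralog difference passed the test between doses. The difference aldoab minus aldocb was lower at 0.00625 mM than in controls by 0.23 on the log2 scale, as a mean over stages (-0.23, exact permutation test within stages, two-sided, p = 0.001, adjusted p = 0.0033 over 20 tests). The control arrays read from -1.22 to -0.97 at 6-somites, from 0.08 to 0.23 at 21-somites and from 0.997 to 1.09 at Prim-5. Those at 0.00625 mM read from -1.63 to -1.21, from -0.28 to 0.07 and from 0.897 to 0.991. The stage differences were -0.29, -0.30 and -0.11, and the groups overlapped at 6-somites.

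With the mean of both aldocb probe sets the dose difference of the aldolase pair was -0.08 and did not pass (exact permutation adjusted p = 0.77). At 0.625 mM it was -0.004 and at 5 mM 0.04, and neither passed (adjusted p = 0.96 and 0.94). The value at 0.625 mM is the mean of stage differences of 0.02, 0.14 and -0.17, and the groups did not overlap at Prim-5. The other 9 dose tests of the pairs did not pass, with changes between -0.08 and 0.15. Whether the change at 0.00625 mM differed from those at the higher doses was not tested.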

How the data were processed

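RNA of pooled whole zebrafish embryos (36 samples, 3 per group of stage and MTBE dose, groups taken from the submitters' titles) was amplified with a NuGEN kit and hybridised to 1-colour Affymetrix arrays, per the labels' protocols. The authors deposited 1 table of log2 signals of 15617 probe sets. How the signals were corrected for background and normalised is not given in the sources used here. The values were analysed as deposited. Precision is limited by 3 arrays per group.

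The 115 control probe sets were left out, and the remaining 15502 were fitted at once with limma 3.58.1 in R 4.3.3 (12 group means, empirical Bayes, Benjamini-Hochberg adjustment over all probe sets within a contrast, threshold 0.05). No filter on low values was used. Gene names come from the platform annotation, which may be old: 10795 probe sets tested have 1 symbol, 135 have several, and the rest have none. Where a gene had several probe sets, that with the highest mean level stood for it. All 10 genes are named. Counts are given for the lists of fast muscle, neuron, yolk layer, other glycolysis, glycogen and glucose formation, and transport and control genes. Some of their genes of smallest p in a stage step are named. Lists of slow muscle, heart, radial glia, red blood cell, notochord and lens genes were also drawn up, without counts given here. Paralog differences were tested with exact permutations of arrays within doses or within stages, two-sided, adjusted over 20 tests. The fits were checked on simulated data. The genes and lists were chosen with earlier results of these data known. Alternatives were other normalizations, filters, variance models and array sets.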

Additional observations from a re-analysis of the deposited data

How the results depend on the processing

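Of the results recomputed, including each array left out in turn, the members' count in the second step, all their counts against control but 1 and the first paralog step of the aldolases, the isomerases and the enolases kept direction and side of the threshold under every alternative run. The exceptions follow. The members' count in the first step, 8, was 9 with cyclic loess and with any of 3 arrays left out and 7 with the 5′ control probe set of gapdhs, an alternative chosen after seeing the data. The counts of the steps within single doses moved by no more than 1.5 times. The count of 1 for 6-somites at 0.00625 mM became 0 with 50 added to the linear signals, when probe sets under the median level were dropped, with array weights, without the yolk-poor controls, with the mean of all probe sets of a gene and with only the arrays compared, and ran from 0 to 2 with 1 array left out. With 50 added, gapdh minus gapdhs turned to 0.18 and 0.32, gpia minus gpib for Prim-5 minus 21-somites to 0.070, eno1a minus eno3 to 0.011 for that step, -0.013 at 0.00625 mM and 0.0086 at 0.625 mM, aldoab minus aldocb at 5 mM to -0.0010, and the control first step of gapdh to 0.045 (0.46 with array weights and 0.39 without the yolk-poor controls). Without the yolk-poor controls gapdh minus gapdhs was -0.70 for the second step and -0.23, -0.26 and -0.23 at the rising doses, eno1a minus eno3 at 0.625 mM was 0.14, and at 21-somites gapdh at 5 mM was -0.068 and tpi1b -0.072 at 0.625 mM and -0.11 at 5 mM. The aldolase difference at 0.00625 mM was -0.081 with the mean of the aldocb probe sets. Reading gapdhs by its middle control probe set, an alternative chosen after seeing the data, gave -0.061 at 21-somites and 0.625 mM. For values that changed sign the cause was not tested.

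With 1 array left out, values ran as follows: aldocb at 6-somites and 5 mM from -0.059 to 0.41; the control first step of eno3 from -0.33 to 0.11 and of gapdh from -0.50 to 0.72; at 21-somites gapdh at 5 mM from -0.068 to 1.16, and tpi1b from -0.072 to 0.71 at 0.625 mM and from -0.11 to 0.67 at 5 mM. For aldoab minus aldocb they ran from -0.039 to 0.034 at 0.625 mM and from -0.032 to 0.14 at 5 mM; for gapdh minus gapdhs from -0.70 to -0.38 in the second step and from -0.16 to 0.27, -0.20 to 0.23 and -0.16 to 0.27 at the rising doses; for eno1a minus eno3 from -0.069 to 0.18 at 0.00625 mM and from -0.14 to 0.11 at 0.625 mM.

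The replicate numbers did not pair the arrays: deviations of same-numbered arrays from their group means correlated at 0.0066, -0.021 and -0.015 on average at the 3 stages. With the replicate block the stage steps over all doses called 8 and 10 of the 10 genes, as without it, the first step in controls 8 in place of 7 and the second at 5 mM 10 in place of 9; it changed no other count of members and no call of a paralog test. Over all probe sets the number called moved by over 1.5 times in no stage step under the normalizations or without the yolk-poor controls. Among dose comparisons quantile normalization, and leaving out the yolk-poor controls, gave 1 in place of 0 at 6-somites and 5 mM; the latter also gave 1 in place of 2 at 0.625 mM and 1 in place of 0 at 0.00625 mM over all stages. Cyclic loess raised the share of higher calls by over 10 points in 5 of the 8 steps within doses, to 2034 higher and 1519 lower at 0.00625 mM (1733 and 2062) and 2176 and 1671 at 5 mM (1952 and 2335) in the first step, and in the second to 823 and 275 in controls (672 and 419), 1154 and 555 at 0.625 mM (908 and 845) and 892 and 393 at 5 mM (834 and 611). The dim levels of gapdhs, eno1a, gpib, pgam2 and the second aldocb probe set at 6-somites, and of gpib and pgam2 also at 21-somites, limit what their first steps can show. The control means of aldoab at 6-somites (3.41) and of gapdhs at 21-somites (3.36) also lay within the AsRed range.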
